A study of Ovis aries with 36 samples.

Results

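The genes described here are the numbered zinc finger genes of the sheep genome with symbols from ZNF200 to ZNF699. The rule reads the symbol alone and no measured value, and its members made up 154 of the 35223 genes in the count table. Of these, 150 passed the filter on low counts and were tested. The 4 that did not pass were ZNF596, with 24 reads over all 36 libraries, ZNF648 with 25, ZNF683 with 97 and ZNF630 with 0.

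RNA-seq was performed on 36 libraries of cultured ovine ruminal epithelial cells, which line the rumen and absorb volatile fatty acids (VFAs), the products of fermentation there. Every culture was first given 100 nM dexamethasone without serum for 2 h, a glucocorticoid pulse that sets cellular clocks to a common phase. The Grain cells then received medium with 115.78 mM total VFAs, made of 71.1 mM acetate, 20.1 mM propionate, 16.0 mM butyrate, 1.7 mM valerate, 1.1 mM isobutyrate and 5.3 mM isovalerate. The Hay cells received 89.79 mM total VFAs, made of 60.8 mM acetate, 14.6 mM propionate, 9.2 mM butyrate, 1.2 mM valerate, 1.0 mM isobutyrate and 3.0 mM isovalerate. Both media were set to pH 7.2, so that the media differed in every VFA at once and no culture without VFAs was analysed here. Cells were harvested every 4 h at 6 times, T0 to T20 (24 h to 44 h as counted by the submitters), with 3 libraries per medium and time. The design asks how the 2 VFA mixtures differ, and whether the difference or a daily rhythm depends on the time of harvest.

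Zinc finger proteins of the C2H2 type hold a zinc ion in each short finger, and arrays of such fingers read DNA or, in some members, RNA or protein. The largest class in mammals carries a KRAB domain, which recruits the corepressor TRIM28 and, through it, the histone methyltransferase SETDB1 and heterochromatin proteins to silence transposable elements and some genes. Others carry a SCAN domain, by which they pair with each other, or neither domain. A minority serve ribosome maturation and quality control, splicing, the mitotic spindle or SUMO conjugation, and ZNF is thus a name for a fold and not for one pathway.

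Library totals ranged from 52397135 to 68120879 counts. The chosen genes together took 3309 to 3976 CPM (counts relative to the library total, here without further scaling) in Grain (median 3691) and 3299 to 3766 in Hay (median 3574). The labels do not say whether the 3 replicates came from separate animals or cultures, so the p-values measure only the spread between these libraries. All other levels are given as CPM after scaling by the trimmed mean of M-values (TMM). The labelled cell type was checked against markers. Summed over 5 basal epithelial genes (KRT5, KRT14, TP63, EPCAM and CDH1), the level was 218 to 558 CPM in Grain and 248 to 336 in Hay. Summed over 5 mesenchymal genes (VIM, COL1A1, COL1A2, COL3A1 and PDGFRB), it was 18100 to 29600 CPM in Grain and 15800 to 22300 in Hay. Both lists were split between the media under all 4 scalings tried, with 2 of 5 genes lower in Grain and 2 higher (3 with TMM). Of the mesenchymal genes, VIM (1.04 on the log2 scale) and COL3A1 (0.70) were higher, and COL1A1 (-0.74) and COL1A2 (-0.74) lower. Of the epithelial genes, KRT14 (0.74) and EPCAM (0.29) were higher, and TP63 (-0.77) and CDH1 (-0.57) lower. PDGFRB (0.11) and KRT5 (0.07) were called as higher with TMM alone and changed sign with the scaling. All 5 epithelial genes were thus detected beside abundant mesenchymal transcripts. The 3 leukocyte genes (PTPRC, CD68 and CD3E) summed to 1.73 CPM or less. The 3 endothelial genes (PECAM1, CDH5 and VWF) summed to 6.48 or less. These lists were split between the media as well. PECAM1 was higher in Grain (2.32 against 1.05 CPM), CDH5 was lower (0.09 against 0.24 CPM) and VWF was not called. CD68 was higher (0.43 against 0.23 CPM), and PTPRC (0.37 against 0.87 CPM) and CD3E (0.05 against 0.14 CPM) were lower. The part of any of these cell types in the zinc finger results was not tested, and in such bulk RNA fewer cells of a type and less RNA per cell cannot be told apart. Levels are compared between media and times for one gene, not between genes, because transcript lengths were not used.

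The zinc finger genes moved in both directions between the media, more often up than down and mostly by small amounts. Over the mean of the 6 harvests, 73 of 150 were higher in Grain (48.7%; 37.9% of all genes tested) and 54 were lower (36.0%; 43.9% of all genes tested), by edgeR's quasi-likelihood test at an adjusted p under 0.05. The other 23 were not called. The median log2 difference was 0.08 for these genes and -0.07 for all genes. This split depended on the scaling. With upper-quartile factors or with library totals alone, 58 were higher and 69 lower, or 45.7% of the called genes higher in place of 57.5%. Those scalings put the median of all genes at -0.19 and that of the zinc finger genes at -0.04. A change of scaling shifts all genes by nearly the same amount, so the gap between these medians could hardly change and is no test. Of the genes, 58 were higher and 54 lower under all 4 scalings tried, and 1 was called in opposite directions.

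**Figure D1:**
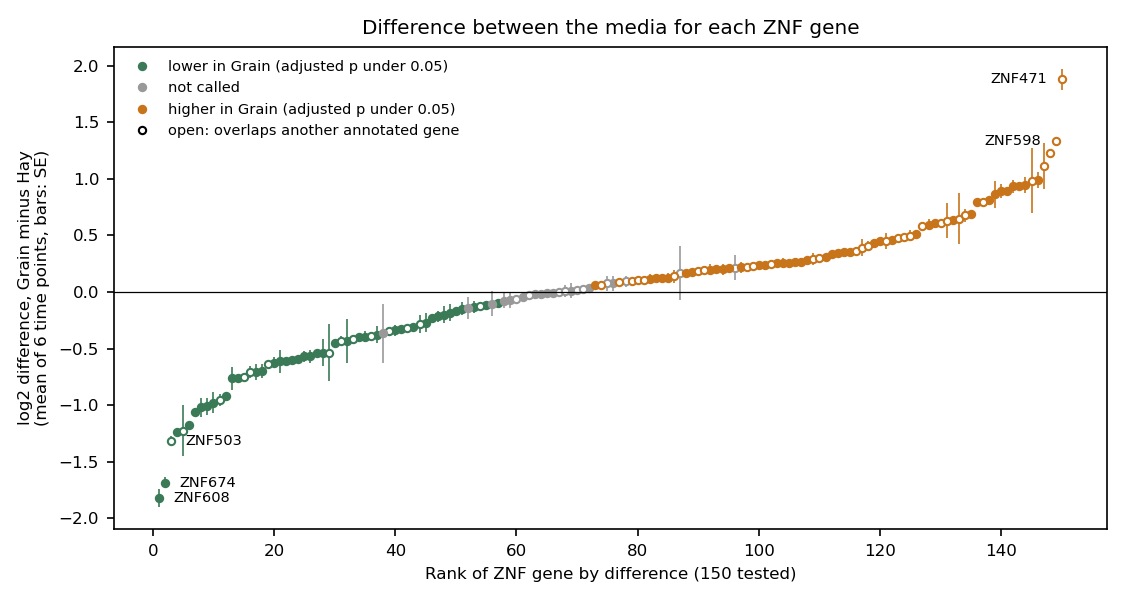
Log2 difference between Grain and Hay over the mean of 6 harvests (vertical axis, bars are standard errors) for the 150 tested zinc finger genes in rank order, with open symbols for genes that overlap another annotated gene. The differences run from -1.82 for ZNF608 to 1.88 for ZNF471, and most lie within 1 log2 unit of 0.

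Few of the differences were large. In all, 4 genes were called with at least a 2-fold rise in Grain (2.67% of the 150; 5.7% of all genes) and 9 with at least a 2-fold fall (6.0%; 16.0% of all genes). In all genes such falls were most frequent at low abundance (33.7% of those of mean log2 CPM under 0), and among genes of mean log2 CPM 2 to 4, 5 of 54 zinc finger genes fell 2-fold (9.26%; 8.45% of all genes). The 4 rises were ZNF471, ZNF598, ZNF667 and ZNF565, and each overlaps another annotated gene. Since the library kit does not keep strand, reads of overlapping genes cannot be assigned with certainty. Among the 127 called genes, 40 differed by less than 1.2-fold, a count that was not made over all genes. A consistent sign at all 6 harvests was seen for 106 of the called genes (70.7% of the 150; 66.8% of all genes).

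ZNF471, which encodes a KRAB zinc finger protein, had the largest rise. Its level was 8.24 CPM in the lowest, 12.7 in the median and 17.2 in the highest of the 18 Grain libraries, against 1.71, 3.31 and 5.10 in the 18 Hay libraries. The 2 sets of libraries did not overlap, and the log2 difference was 1.88 (SE 0.092, edgeR adjusted p = 2.26e-20). The gene overlaps SMIM17 in the RefSeq annotation.

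ZNF598 encodes the ubiquitin ligase that marks the small subunit of collided ribosomes, the first step of ribosome-associated quality control. Its level was 60.6, 67.3 and 78.7 CPM (lowest, median, highest) in Grain and 22.3, 26.5 and 32.4 in Hay. No Grain library came near the Hay range, and the log2 difference was 1.33 (SE 0.025, edgeR adjusted p = 1.18e-33). ZNF598 overlaps NPW and SYNGR3. ZNF622, the counterpart of a yeast factor that acts late in maturation of the large ribosomal subunit, overlaps no annotated gene. Its level was 54.9, 60.9 and 63.9 CPM in Grain and 27.8, 32.7 and 36.6 in Hay, a log2 difference of 0.90 (SE 0.024).

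ZNF667, a KRAB protein gene, was at 30.1, 33.7 and 37.4 CPM in Grain and at 11.7, 14.2 and 17.7 in Hay, with a log2 difference of 1.23 (SE 0.026); it overlaps the uncharacterised LOC121816447. The other large rises came from genes that overlap no annotated gene: ZNF524 (0.99), whose protein binds telomeric repeats, ZNF579 (0.95), ZNF316 (0.94), ZNF574 (0.94), ZNF324 (0.89) and ZNF584 (0.86). Among these 10 largest rises, every Grain library lay above every Hay library for all but ZNF579 and ZNF584.

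**Figure D2:**
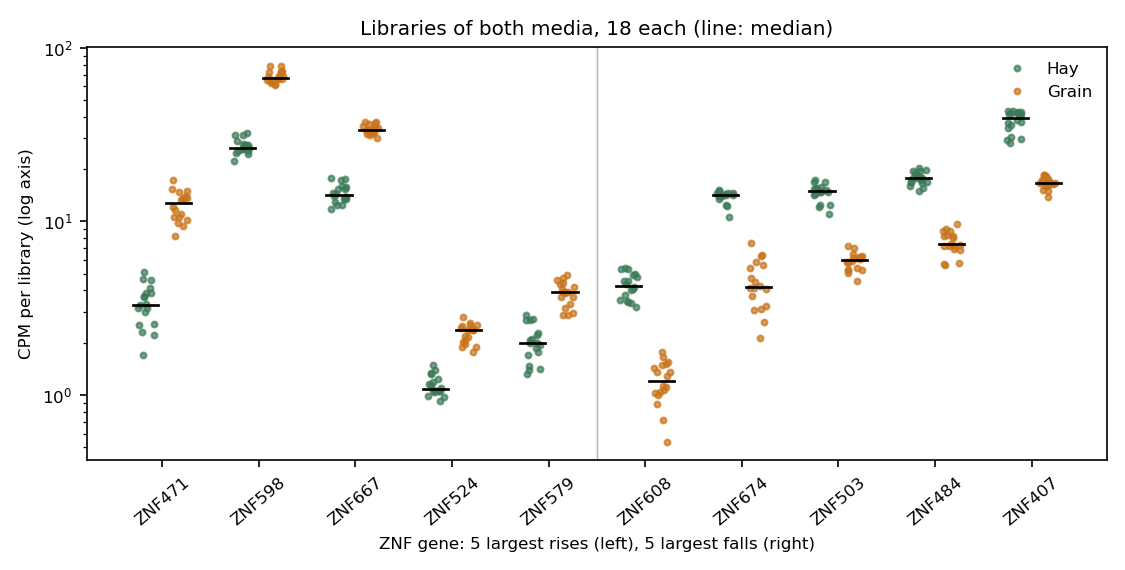
CPM in each of 18 Grain and 18 Hay libraries (log axis) for the 5 largest rises and the 5 largest falls, with a line at each median. The media do not overlap for 9 of the 10 genes, and for ZNF579 the lowest Grain library (2.89 CPM) lies just under the highest Hay library (2.90 CPM).

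The largest fall was that of ZNF608, a large zinc finger protein and a paralogue of ZNF609. Its level was 0.539, 1.21 and 1.77 CPM in Grain and 3.21, 4.27 and 5.41 in Hay. All Grain libraries lay below all Hay libraries, and the log2 difference was -1.82 (SE 0.080, edgeR adjusted p = 6.88e-22). ZNF609 itself was at 45.1 ± 4.29 CPM in Grain and 45.8 ± 2.45 in Hay (SD, n = 18 each), and was not called (log2 difference -0.02, edgeR adjusted p = 0.31), though it was lower by -0.06 to -0.15 and called with the other 3 scalings.

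ZNF674, a KRAB protein gene, was at 2.12, 4.20 and 7.52 CPM in Grain and at 10.6, 14.1 and 15.3 in Hay. The media did not overlap, and the log2 difference was -1.68 (SE 0.046). ZNF503, which encodes a developmental repressor of the NET family, was at 4.55, 5.99 and 7.18 CPM in Grain and at 11.1, 14.9 and 17.3 in Hay, with a log2 difference of -1.31 (SE 0.039). It overlaps LOC114110806. ZNF484, a KRAB protein gene, was at 5.62, 7.38 and 9.67 CPM in Grain and at 15.0, 17.7 and 20.3 in Hay, with a log2 difference of -1.24 (SE 0.028).

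ZNF407 encodes a protein with a long array of fingers. Its level was 13.8, 16.6 and 18.6 CPM in Grain and 28.2, 39.6 and 43.2 in Hay, a log2 difference of -1.17 (SE 0.026). ZNF652, whose protein binds the corepressor CBFA2T3, fell by 1.06 on the log2 scale, ZNF300 by 1.02, ZNF391 by 1.01, ZNF536 by 0.98 and ZNF365 by 0.95. The Grain and Hay libraries were apart for all of these 10 genes but ZNF300 and ZNF536, both at about 1 CPM in Grain. ZNF565 (log2 difference 1.11, SE 0.20) and ZNF597 (-1.22, SE 0.22) also passed 2-fold, but lay under 1 CPM in both media.

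Over all 150 genes, the 18 Grain and the 18 Hay libraries did not overlap for 45, of which 29 were higher and 16 lower in Grain (30.0% of the 150; 27.2% of all genes). At each of the 6 harvests, the 3 Grain libraries were apart from the 3 Hay libraries for 67 of the 150 (44.7%; 39.6% of all genes).

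The genes were grouped by role, in lists drawn up with earlier results of these data known. Of 8 genes for RNA, ribosome and spindle factors, 5 were higher (62.5%), 2 lower (25.0%) and 1 not called (median log2 difference 0.24; -0.07 over all genes). Their median log2 CPM was 5.56, and of all genes of mean log2 CPM 4 to 6, 55.3% were higher and 36.6% lower. Besides ZNF598 and ZNF622, the higher ones were ZNF593 (0.39, SE 0.074), a factor of large subunit maturation, ZNF207 (0.29, SE 0.012), a partner of the mitotic checkpoint protein BUB3, and ZNF638 (0.18, SE 0.015), an RNA-binding silencer of unintegrated retroviral DNA. ZNF207 was at 305 ± 26.4 CPM in Grain and 249 ± 13.4 in Hay (SD, n = 18 each). Both lower genes bind or process RNA: ZNF326 (-0.76, SE 0.017), a subunit of the complex that couples transcript elongation to splicing, and ZNF346 (-0.71, SE 0.054), which binds double-stranded RNA. ZNF326 was at 27.3, 33.4 and 38.9 CPM in Grain and 46.4, 58.3 and 62.8 in Hay, with no overlap. ZNF330, a nucleolar protein gene, was at 52.1 ± 2.79 CPM in Grain and 53.7 ± 3.14 in Hay (SD, n = 18 each). It was not called with the main scaling (log2 difference -0.04, edgeR adjusted p = 0.060) but was called as lower with each of the other 3 and when any 1 of 13 of the 36 libraries was left out (adjusted p from 0.017 to 0.049).

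Partners of chromatin complexes and SUMO gave no common direction. Of 11, 5 were higher (45.5%; 37.9% of all genes), 3 lower (27.3%; 43.9% of all genes) and 3 not called. Their median log2 CPM was 5.09, and of all genes of mean log2 CPM 4 to 6, 55.3% were higher and 36.6% lower. With upper-quartile factors or library totals alone, 3 were higher and 5 lower (31.4% and 51.0% of all genes). The larger differences kept their sign under each scaling. ZNF592 (0.58, SE 0.041) and ZNF687 (0.46, SE 0.032), which share a complex with the histone reader ZMYND8, were higher, whereas the other partner in that complex, ZNF532, was lower (-0.43, SE 0.044). ZNF451, a SUMO ligase gene, was higher by 0.33 (87.4 ± 5.47 CPM against 69.4 ± 4.92; SD, n = 18 each). ZNF512 was lower by -0.60 (42.7 ± 2.19 against 64.8 ± 2.33 CPM; SD, n = 18 each), and ZNF217, an oncogene that works with the corepressor CtBP, by -0.16. ZNF410, which activates CHD4, differed by 0.13 and lost its call with upper-quartile factors or library totals alone. ZNF219 (0.09), ZNF462 (0.03), ZNF516 (0.11) and ZNF644 (0.02) changed sign with the scaling, and ZNF516 was the single one of them called in the main result, a call lost without the 6 T12 libraries (adjusted p = 0.065). ZNF219 was called when any 1 of 6 libraries was left out (adjusted p from 0.029 to 0.046).

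Of 12 genes of development, matrix and cell state, 7 were lower in Grain (58.3%), 2 higher (16.7%) and 3 not called (median log2 difference -0.34; -0.07 over all genes). Their median log2 CPM was 1.78, and of all genes of mean log2 CPM 0 to 2, 53.7% were lower and 29.3% higher, so the share of lower genes was close to that of genes of like abundance. Beyond ZNF608, ZNF503, ZNF536 and ZNF365, the lower ones were ZNF469 (-0.54, SE 0.12), mutated in brittle cornea syndrome, ZNF281 (-0.33, SE 0.019), known from pluripotency and epithelial-mesenchymal transition, and ZNF521 (-0.27, SE 0.086), a brake on adipocyte fate. ZNF521 was not called without the 6 T12 libraries (-0.15, edgeR adjusted p = 0.14). The higher ones were ZNF395 (0.68, SE 0.058; 12.3 ± 1.22 against 7.76 ± 1.46 CPM, SD, n = 18 each), a hypoxia-induced factor gene that overlaps PNOC, and ZNF367 (0.21, SE 0.035). ZNF423, the partner of ZNF521 in adipocyte commitment, and ZNF366 lay near 0.25 CPM and were not called.

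KRAB or SCAN proteins with a described role numbered 7 tested, of which 6 were higher and 1 lower (37.9% and 43.9% of all genes). Their median log2 CPM was 3.36, and of all genes of mean log2 CPM 2 to 4, 45.2% were higher and 43.1% lower. With upper-quartile factors or library totals alone, 5 were higher, 1 lower and 1 not called (31.4% and 51.0% of all genes). Of the 6 higher genes, 4 differed by 0.25 or 0.26. ZNF445, which guards imprinted loci, was at 89.1 ± 4.76 CPM in Grain and 74.2 ± 1.76 in Hay (SD, n = 18 each), a log2 difference of 0.26. ZNF263 (0.26), ZNF382 (0.26) and ZNF202 (0.25), a regulator of lipid metabolism genes, were close to it. ZNF274, which brings SETDB1 to clusters of zinc finger genes, was higher by 0.63 (SE 0.16) at under 1 CPM and overlaps 2 uncharacterised genes. ZNF268 was higher by 0.20, a call lost with upper-quartile factors or library totals alone, and ZNF300 was the lower one.

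The machinery that KRAB proteins recruit was examined in 40 tested corepressor and heterochromatin genes. Of these, 25 were higher in Grain, 12 lower and 3 not called (62.5% and 30.0%; 37.9% and 43.9% of all genes), or 20 and 16 with upper-quartile factors and 20 and 17 with library totals. The list's median log2 CPM was 6.06, and of all genes over 6, 58.5% were higher and 36.2% lower, so its split was close to that of genes of like abundance. TRIM28, the corepressor itself, was at 75 ± 9.61 CPM in Grain and 30.4 ± 3.06 in Hay (SD, n = 18 each), a log2 difference of 1.3 (SE 0.023, edgeR adjusted p = 2.74e-34). MTA1, a subunit of the nucleosome remodelling and deacetylase complex that TRIM28 binds, was higher by 1.34 (SE 0.021). Of the other listed subunits, CHD3, CHD4, GATAD2A, GATAD2B, MBD2, RBBP7 and HDAC2 were higher by less with TMM. HDAC1 was lower (-0.14), and MTA2, MBD3 and RBBP4 were not called with TMM. With upper-quartile factors or library totals, HDAC2, MTA2 and RBBP4 were called as lower, RBBP4 also with DESeq2 size factors. Methyltransferases of histone H3 lysine 9 were higher as well: SUV39H1 by 0.89, SUV39H2 by 0.67, EHMT2 by 0.38, EHMT1 by 0.23 and SETDB1 by 0.22. The heterochromatin protein genes CBX1 (-0.44) and CBX5 (-0.24), the SETDB1 partner ATF7IP (-0.47) and TRIM33 (-0.62) were lower. The related CBX3 (0.04) was called as higher with TMM and as lower with upper-quartile factors or library totals. Of the silencing complex HUSH, TASOR was lower by -0.62, PPHLN1 was lower by -0.18 and MPHOSPH8 was higher by 0.47, and all of these overlap another gene. So do CHD3, CHD4, GATAD2A, MTA2, RBBP4, SETDB1, SUV39H2, ATF7IP and TRIM33 among the corepressor genes named above.

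The balance of calls differed with the abundance of the genes, as counted reads. Of 12 zinc finger genes with a mean log2 CPM over 6, 11 were higher in Grain and only ZNF217 was lower, while 58.5% and 36.2% of all genes of that abundance were. With DESeq2 size factors 10 were higher and 1 lower (55.6% and 38.6% of all genes), and with upper-quartile factors 9 and 2 (48.1% and 46.3%), as ZNF697 turned to a lower call and ZNF664 lost its call. With the main scaling, between 4 and 6, 24 of 47 were higher and 14 lower (55.3% and 36.6% of all genes). Between 2 and 4, 27 of 54 were higher and 22 lower (45.2% and 43.1%). Between 0 and 2, 8 of 28 were higher and 13 lower (29.3% and 53.7%). Under 0, 3 of 9 were higher and 4 lower (15.0% and 48.2%). The share of all genes higher in Grain thus rose with abundance too, and the zinc finger genes have a higher median log2 CPM (3.37) than all genes tested (2.54).

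**Figure D3:**
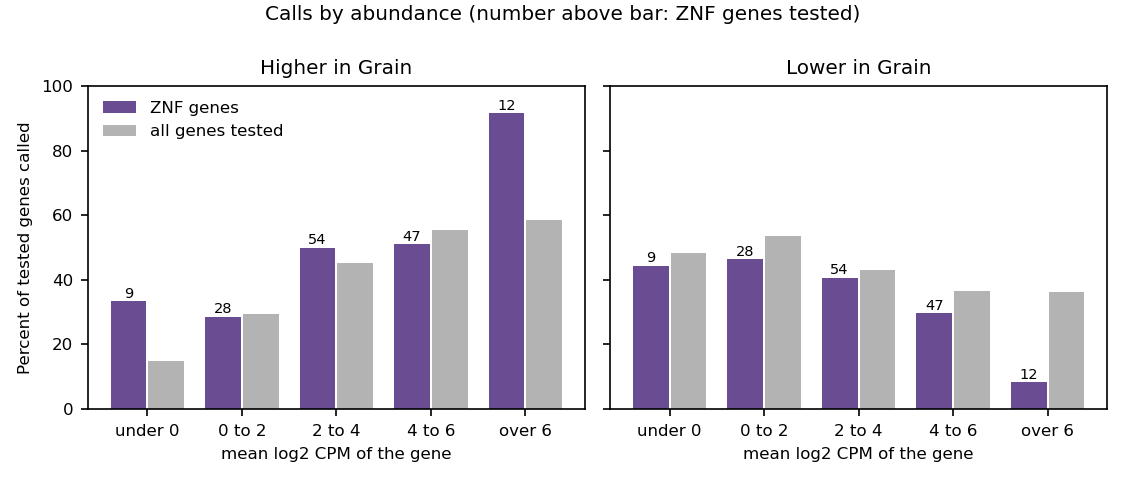
Percent of genes called as higher (left) or lower (right) in Grain, for zinc finger genes and all tested genes, in 5 classes of mean log2 CPM, with the number of zinc finger genes above each bar. From 0 upward the share called higher grows with abundance in both sets, and 11 of 12 zinc finger genes over 6 were higher with the TMM scaling shown.

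Among the 95 genes that overlap no annotated gene, 42 were higher and 40 lower (44.2% and 42.1%), and among the 55 that overlap one, 31 were higher and 14 lower (56.4% and 25.5%; 37.9% and 43.9% of all genes). The difference between these 2 groups was not tested. Relatives outside the number range gave 67 higher and 64 lower of 155 (43.2% and 41.3%; 37.9% and 43.9% of all genes). By name, 34 and 36 of 83 other ZNF genes, 24 and 11 of 40 ZBTB genes, 6 and 7 of 15 ZFP genes, 2 and 2 of 5 ZKSCAN genes and 1 and 8 of 12 ZSCAN genes were higher and lower. Many zinc finger genes lie in clusters, and 18 pairs of the tested genes were next to each other on a chromosome. Both were called in 12 pairs, in the same direction in 5 and in opposite directions in 7. The same counts were not made for neighbouring pairs of other genes, so they are not read as a trait of zinc finger clusters. ZNF324 (0.89) and its neighbour ZNF446 (-0.38) were such an opposite pair, and ZNF529 (-0.70) and ZNF260 (-0.63) were lower together.

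At single harvests, 54 to 61 of the 150 were higher in Grain and 38 to 47 lower. The counts were 57 and 43 at T0 (31.6% and 31.2% of all genes), 56 and 38 at T4 (29.9% and 27.9%), 54 and 38 at T8 (29.5% and 27.2%), 60 and 47 at T12 (30.7% and 33.6%), 61 and 42 at T16 (30.2% and 32.5%) and 59 and 40 at T20 (29.7% and 29.2%). The balance depended on the scaling. With DESeq2 size factors, 48 to 58 were higher and 42 to 47 lower at each harvest (27.2% to 30.1% and 29.6% to 34.3% of all genes). With upper-quartile factors, 40 to 46 were higher and 49 to 59 lower (23.4% to 25.3% and 32.3% to 39.4% of all genes). With library totals, 39 were higher and 56 lower at T0 (24.9% and 38.8% of all genes) and 39 and 63 at T12 (21.9% and 43.3% of all genes). The counts with library totals were 49 and 49 at T4 (25.7% and 32.0%), 48 and 43 at T8 (27.2% and 29.4%), 46 and 55 at T16 (23.8% and 40.1%) and 43 and 51 at T20 (24.0% and 34.8%). At all 6 harvests, 38 genes were called as higher and 25 as lower, whereas 17 were called at none. The same counts were not made over all genes, so they are not read as a trait of the zinc finger genes. ZNF471 had the largest rise at each harvest, from 1.74 to 2.07 on the log2 scale. ZNF608 or ZNF674 had the largest fall, with ZNF608 from -1.66 to -2.20 and ZNF674 from -1.08 at T8 to -2.16 at T12. ZNF598 stayed between 1.14 and 1.5 and ZNF503 between -0.88 and -1.60. ZNF579 was higher by 1.5 at T0 and by 0.56 at T16 and T20.

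The difference between the media depended on the time of harvest for 50 of 150 genes (33.3%; 32.6% of all genes; edgeR test over 5 contrasts). Without the 6 T12 libraries, 31 did (23.7% of all genes). For 10 genes, 1 harvest gave a higher and another a lower call, a count that was not made over all genes. The 6 genes with the smallest p had their highest or lowest difference at T12, or at T8 just before it, and for most of them the sign turned between these harvests.

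ZNF572 was at 46.8, 47.0 and 48.8 CPM in Grain at T8 and at 30.1, 28.2 and 30.3 at T12. In Hay it was at 38, 36.1 and 37.8 at T8 and at 40.7, 41.1 and 40.9 at T12. Grain libraries thus lay above all Hay libraries at T8 and below them at T12. The log2 difference went from 0.35 to -0.47 (edgeR adjusted p of time dependence 1.77e-11).

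ZNF287, which carries SCAN and KRAB domains, was at 82.2, 86.3 and 85.4 CPM in Grain at T8 and at 53.3, 55.4 and 55.2 at T12. Its Hay libraries were at 62.9, 61.5 and 66.4 CPM and at 62.5, 61.7 and 67.4. The 3 Hay values at both times lay between the 2 Grain levels, and the log2 difference went from 0.41 to -0.23.

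ZNF568, a KRAB protein gene known from control of a placental promoter of Igf2, was at 67.5, 65.6 and 63.9 CPM in Grain at T8 and at 51.8, 52.6 and 52.9 at T12. Hay moved the other way, from 54.8, 56.6 and 54.4 to 62.9, 65.4 and 66.8 CPM. The log2 difference went from 0.25 to -0.31, so that the media traded places.

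ZNF292, a long protein with many fingers, was at 44.8, 45.4 and 43.7 CPM in Grain at T8 and at 63.8, 66.7 and 62.6 at T12. In Hay it was at 52.5, 47.2 and 54.7 CPM and then at 42.8, 43.7 and 41.8. The order of the media reversed in the opposite sense to ZNF568, with a log2 difference of -0.20 at T8 and 0.59 at T12.

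ZNF644, a partner of the methyltransferases EHMT1 and EHMT2, was at 26.3, 26.9 and 23.8 CPM in Grain at T8 and at 37.6, 41.0 and 43.0 at T12. In Hay it was at 35.4, 33.8 and 38.4 CPM and at 34.4, 34.9 and 35.4. The log2 difference went from -0.48 to 0.22, though the T12 value was 0.10 with upper-quartile factors and 0.02 with library totals, neither called.

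ZNF260, which acts with GATA4 in heart cells, was lower in Grain at every harvest but T8 in the main result, where it was not called. Its Grain libraries were at 14.1, 15.5 and 13.5 CPM at T8 and at 10.0, 8.79 and 9.01 at T12, and its Hay libraries at 15.9, 16.4 and 15.9 and at 22.5, 21.1 and 19.6. The log2 difference widened from -0.16 to -1.18. It was called at T8 with each of the other 3 scalings (-0.20 to -0.25) and without replicate 2 of Grain T8 (adjusted p = 0.033). For the other 5 of these genes, the signs at T8 and T12 were the same under all 4 scalings.

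**Figure D4:**
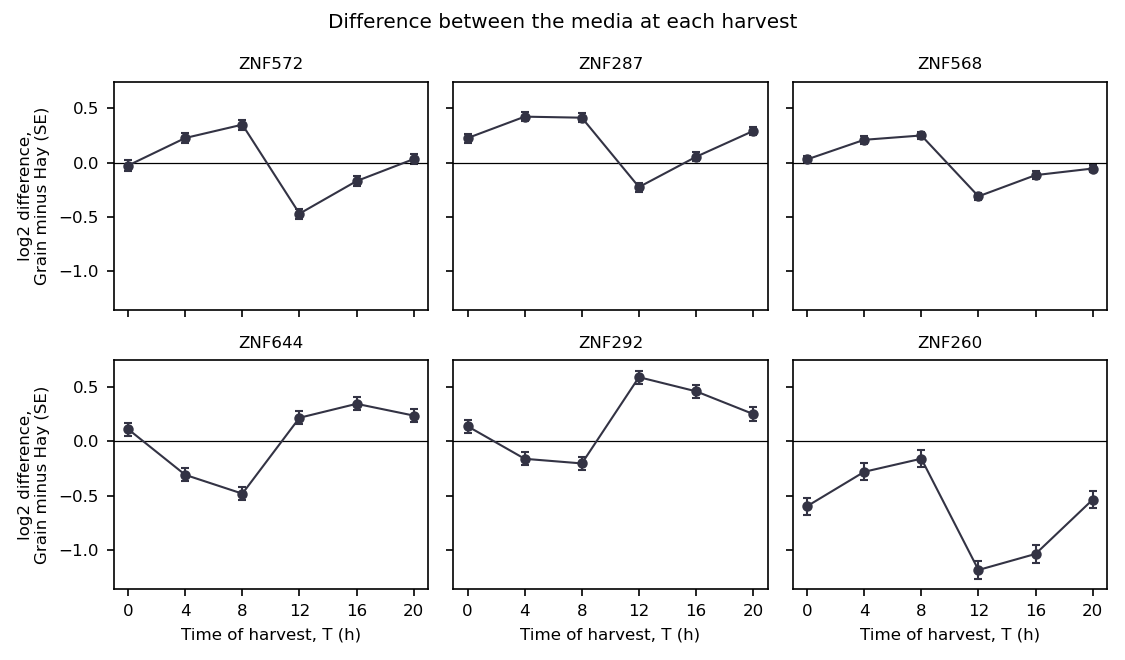
Log2 difference between Grain and Hay (vertical axis, bars are standard errors) at the 6 harvests (T0 to T20, h) for the 6 genes whose difference depended most on time. A break lies between T8 and T12 in every panel, down for ZNF572, ZNF287, ZNF568 and ZNF260 and up for ZNF644 and ZNF292.

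Neighbouring harvests of one medium were then compared, a comparison added after this break was seen. Between T8 and T12, 76 of 150 genes changed in Grain (50.7%; 50.0% of all genes), of which 29 rose and 47 fell (23.5% and 26.5% of all genes), and 49 changed in Hay (32.7%; 36.1% of all genes), of which 15 rose and 34 fell (19.6% and 16.4% of all genes). Between T4 and T8, 0 genes passed in either medium (3.25% of all genes in Grain and 0.489% in Hay), with 18 in Grain and 10 in Hay at an unadjusted p under 0.05 in edgeR and 3 and 0 called by DESeq2. Any other step gave at most 33 calls in Grain and 10 in Hay under every setting and left-out library tried, against at least 67 and 40 for T8 to T12. Of the 150 genes, 19 fell and 6 rose in both media between T8 and T12, 7 went in opposite directions, 44 were called in Grain alone and 17 in Hay alone. These joint counts were not made over all genes, so they are not read as particular to the zinc finger genes. The direction was sensitive to scaling: with library totals alone, 8 rose and 101 fell in Grain (8.63% and 49.2% of all genes) and 4 rose and 67 fell in Hay (11.1% and 28.7% of all genes). With upper-quartile factors 21 rose and 60 fell in Grain (19.1% and 30.8% of all genes) and 12 and 46 in Hay (16.8% and 19.6% of all genes). The share of all counts held by the zinc finger genes was 3856 to 3976 CPM of the unscaled library total in Grain at T8 and 3309 to 3371 at T12, and in Hay 3739 to 3766 and 3332 to 3382. The TMM factors moved with it, from 1.04 to 1.05 at T8 to 0.859 to 0.869 at T12 in Grain and from 1.07 to 1.09 to 0.982 to 1.00 in Hay. TMM-scaled levels are divided by these factors. In Grain the factors fell by a larger proportion than the share, so the share after TMM scaling did not fall there. In Hay the share fell by the larger proportion. The part of the factors in the step was not tested.

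Cell type markers moved at the same step. The 5 basal epithelial genes summed to 218 to 251 CPM at T8 and 521 to 558 at T12 in Grain, and to 248 to 271 and 323 to 336 in Hay. Of them 4 rose in Grain (2 to 5 over the 4 scalings) and 2 in Hay (1 or 2, and 1 fell with library totals). KRT5 rose in both media under each scaling, from 25.7 to 28.9 CPM at T8 to 160 to 170.0 at T12 in Grain, and from 44.9 to 52.5 CPM at T8 to 105 to 109 at T12 in Hay. The 5 mesenchymal genes summed to 18100 to 18900 CPM at T8 and 29200 to 29600 at T12 in Grain, and to 15800 to 16600 and 21500 to 22300 in Hay. Under each scaling all 5 rose in Grain and 4 rose in Hay, where VIM was called as lower with library totals. Of the 3 endothelial genes, VWF fell in Grain and PECAM1 in Hay under each scaling, and PECAM1 in Grain under all but DESeq2 size factors. No leukocyte gene was called with TMM, and up to 2 of 3 were lower in Grain with the other scalings. The part of these cell types in the step of the zinc finger genes was not tested.

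Examples of the step, picked after their values were seen, kept their call under all 4 scalings and without any 1 library. ZNF362 fell in both media. It was at 5.47, 6.02 and 6.65 CPM in Grain at T8 and at 3.10, 2.68 and 2.99 at T12, and in Hay at 6.15, 5.14 and 5.69 and then at 3.91, 3.75 and 4.02. The T12 libraries lay below the T8 libraries in each medium, with log2 differences of -1.05 (SE 0.13) and -0.54 (SE 0.13). ZNF484 fell by 0.69 in Grain and by 0.32 in Hay on the log2 scale, and ZNF268 fell by 0.79 and 0.46.

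The step could also be limited to one medium in its call. ZNF407 in Hay was at 42.7, 41.5 and 42.6 CPM at T8 and at 29.3, 30.5 and 29.6 at T12, a log2 difference of -0.50 (SE 0.062). In Grain it was at 17.6, 18.5 and 18.2 CPM and at 16.3, 16.7 and 16.5, and was not called (-0.13, SE 0.067, edgeR adjusted p = 0.097), but was called there with upper-quartile factors or library totals. ZNF629 in Grain was at 5.55, 5.14 and 4.93 CPM at T8 and at 9.85, 10.3 and 10.1 at T12, a log2 difference of 0.95 (SE 0.087). Its Hay libraries were at 9.06, 8.81 and 8.48 CPM and at 9.05, 8.47 and 7.79, and the groups overlapped. ZNF292 rose by 0.53 in Grain and fell by 0.27 in Hay, while ZNF260 fell by 0.64 and rose by 0.39 and ZNF568 fell by 0.33 and rose by 0.24.

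A daily rhythm was examined by fitting a cosine of 24 h to each medium. The 6 harvests span less than 1 cycle, so a step or a trend can also yield such a component. It was called in 50 of 150 genes in Grain (33.3%; 31.8% of all genes) and 31 in Hay (20.7%; 20.7% of all genes). Of these, 13 were called in both media, a count that was not made over all genes. The amplitude, which is the distance from mean to peak on the log2 scale, was 0.066 to 0.441 in the Grain calls (median 0.195; 0.201 over all genes called) and 0.066 to 0.295 in the Hay calls (median 0.168; 0.164 over all genes called). With library totals alone, 78 were called in Grain and 37 in Hay. Of all 22488 genes tested, 8547 and 4476 were then called, against 7157 and 4647 with the main scaling.

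The largest amplitudes in Grain were those of ZNF641 (0.44, SE 0.12), ZNF362 (0.40, SE 0.078), ZNF674 (0.40, SE 0.090), ZNF618 (0.40, SE 0.061) and ZNF446 (0.38, SE 0.085), with fitted peaks from 2.7 to 5.3 h after T0. ZNF641 was not called once a linear trend was allowed (edgeR adjusted p = 0.68). In Hay, the largest were those of ZNF300 (0.29, SE 0.090), ZNF362 (0.28, SE 0.077), ZNF608 (0.27, SE 0.080), ZNF407 (0.25, SE 0.034) and ZNF268 (0.24, SE 0.062), with fitted peaks from 2.4 to 5.0 h. ZNF407 had the smallest adjusted p of these (1.12e-05 in edgeR), and its group means ran from 42.0 CPM at T0 to 42.3 at T8, then 29.8 at T12, 32.8 at T16 and 37.5 at T20. The Hay calls of ZNF362, ZNF608 and ZNF268 were lost with a linear trend (adjusted p = 0.12, 0.092 and 0.057). Those of ZNF300, ZNF362 and ZNF608 were lost without the T12 libraries (adjusted p = 0.27, 0.086 and 0.11). Leaving out 1 library ended the Hay call of ZNF300 for 25 of the 36 libraries (adjusted p from 0.051 to 0.14), of ZNF362 for 5 (0.051 to 0.070), namely the 3 of Hay T12, replicate 2 of Hay T0 and replicate 3 of Hay T16, and of ZNF608 for 7 (0.060 to 0.076), namely the 3 of Hay T12, replicates 1 and 3 of Hay T16 and replicates 1 and 2 of Hay T4.

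Few fitted peaks fell in the middle of the course, among the zinc finger genes as among all genes called. In Grain, 30 of 50 lay within 8 h of T0 (60.0%; 51.7% of all genes called), 20 from 12 to 20 h (40.0%; 46.0% of all genes called) and 0 between 8 and 12 h (1.05% of all genes called). In Hay, 22 of 31 lay within 8 h (71.0%; 36.8% of all genes called), 7 from 12 to 20 h (60.3% of all genes called), 1 between 8 and 12 h (2.07% of all genes called) and 1 after 20 h. With library totals alone the early share was 71 of 78 in Grain and 36 of 37 in Hay (83.8% and 66.0% of all genes called).

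The component differed between the media for 19 genes (12.7%; 11.3% of all genes). The smallest p belonged to ZNF644, ZNF292, ZNF568 and ZNF260, which are also among the 6 above. ZNF292 had a fitted peak at 15.9 h (SE 0.76) in Grain and at 4.0 h (SE 0.90) in Hay. ZNF568 peaked at 3.0 h (SE 0.78) in Grain and at 16.9 h (SE 0.95) in Hay, and ZNF260 at 2.7 h (SE 0.75) and 16.6 h (SE 1.1). ZNF644 peaked at 17.1 h (SE 0.49) in Grain, and its Hay component was not called (edgeR adjusted p = 0.077). For the 3 called in both media, the components were thus close to opposite in phase.

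**Figure D5:**
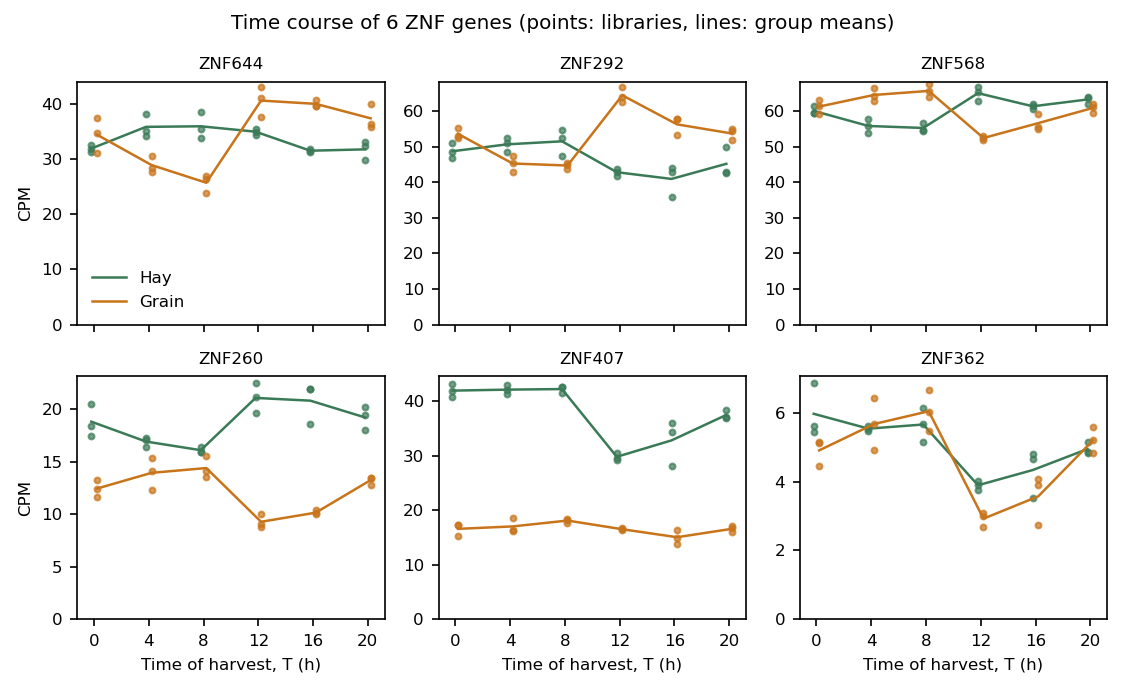
CPM by harvest (T0 to T20, h) for the 4 genes with the smallest p for a difference in the 24 h component and for ZNF407 and ZNF362, with a point per library and lines through the group means of 3. ZNF292, ZNF568 and ZNF260 move in opposite directions in the 2 media between T8 and T12, ZNF407 falls in Hay from 42.3 to 29.8 CPM, and ZNF362 falls in both.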

How the data were processed

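RNA of 36 libraries was sequenced as paired reads from a kit that does not mark strand, per the labels' protocols. The authors deposited a table of whole-number read counts per gene, and HISAT2 2.2.1, SAMtools 1.20 and StringTie 2.1.5 are named in the submitters' processing notes. Neither the genome build nor the annotation is given in the sources used here. Chosen members were symbols ZNF200 to ZNF699. This range of symbols and the role and marker lists were chosen with earlier results of these data known, though the rule itself reads no measured value. Genes were kept by edgeR's filterByExpr (minimum count 10, minimum total 15, 12 groups), which left 22488. Levels are CPM after TMM scaling, and the counts were fitted with edgeR 4.0.16 (R 4.3.3) in one quasi-likelihood model over 12 groups of 3 libraries, with two-sided tests and Benjamini-Hochberg adjustment over all genes tested at 0.05. Contrasts were Grain minus Hay over the mean of 6 harvests, at each harvest, its dependence on time, and cosine terms of 24 h period. DESeq2 1.42.0, other scalings (DESeq2 size factors, upper-quartile factors, library totals), no filter, a replicate block, a linear trend, a minimum fold of 1.5, single times or media fitted alone and each library left out were alternatives. Leaving out the 6 T12 libraries and comparing neighbouring harvests, and giving abundance classes and markers under each scaling, were added after seeing the data. The code was tested on simulated data.

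No pair of replicates came within sampling noise of each other (their chi-square divided by its degrees of freedom was 4.76 to 24.2), and all 36 were kept. Genes in the table without a symbol (2778) could not be members. Overlaps and neighbours were read from the RefSeq annotation of another or unknown build, and no coordinate is printed. KRAB domains and finger numbers were not computed, and no protein or promoter sequence was used here. The named genes were, at a mean of at least 1 CPM in a medium, the 10 largest called rises and falls with one sign at all 6 harvests, the 2 largest of each at single harvests with libraries apart, the 6 smallest p for time dependence, the 5 largest called amplitudes per medium, the 4 smallest p for a differing 24 h component, and all members of the role lists.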

Additional observations from a re-analysis of the deposited data

Results flagged for a closer look

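The difference between Grain and Hay differed between harvests by a direct test for the genes with the smallest p, namely ZNF572 (edgeR adjusted p = 1.77e-11), ZNF287 (4.16e-11), ZNF568 (5.71e-11), ZNF644 (4.87e-10), ZNF292 (9.86e-10) and ZNF260 (2.03e-09). The 24 h component differed between the media by a direct test for ZNF644 (edgeR adjusted p = 4.73e-05), ZNF292 (0.000179), ZNF568 (0.000359) and ZNF260 (0.000559). For ZNF292, ZNF568 and ZNF260, Grain and Hay moved in opposite directions between T8 and T12, and these calls held in both media under each scaling, DESeq2, no filter, the replicate block and each left-out library.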

How the results depend on the processing

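Over the mean of the 6 harvests, no alternative but the minimum fold moved the count of higher or lower genes by over 1.5 times, and leaving out 1 library gave 71 to 74 higher and 51 to 56 lower. With a minimum fold of 1.5, 15 were higher and 18 lower (12.2% and 20.4% of all genes), and 6 and 2 of the corepressor genes. With library totals alone, 39 genes were higher at T12 (21.9% of all genes). With that scaling, 78 had a 24 h component in Grain (8547 of the 22488 genes tested). With a linear trend added, the 24 h component differed between the media for 31 genes (19.3% of all genes). Without the T12 libraries the difference depended on time for 31 (23.7% of all genes). The cause of these changes was not tested. A minimum fold is a stricter rule than that of the main result. Leaving out T12 removed 6 libraries as well as a harvest. At that harvest, 21 of the genes that depended on time had their lowest difference and 15 their highest. The fewer libraries and the missing harvest cannot be told apart.

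Over the mean of the 6 harvests, the sign of 16 of the 150 genes changed among the 4 scalings, with no value larger in size than 0.12 on the log2 scale. Among the genes named for that comparison these were 4. The value was -0.027 and -0.026 for ZNF219 and -0.015 and -0.014 for ZNF516 with library totals and upper-quartile factors. For ZNF462 it was -0.0072 with DESeq2, -0.0073 with DESeq2 size factors, -0.097 with library totals and -0.096 with upper-quartile factors. For ZNF644 it was -0.013 with DESeq2 and with DESeq2 size factors, -0.102 with library totals, -0.101 with upper-quartile factors and -0.031 without T12.

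Small steps between harvests were less stable than that from T8 to T12. For Grain T4 to T8, DESeq2 called 3 and library totals 2 (0 in the main result). For Grain T12 to T16 (17), library totals gave 26 and no filter 11, and leaving out 1 library 4 to 18. For Hay T0 to T4 (1), DESeq2 gave 3 and leaving out 1 library 1 to 2. For Hay T12 to T16 (9), library totals and upper-quartile factors each gave 5 and no filter 4, and leaving out 1 library 1 to 9. For Hay T16 to T20 (3), DESeq2 gave 5 and no filter 1, and leaving out 1 library 0 to 4. Leaving out 1 library gave 17 to 27 for Grain T0 to T4 (26), 18 to 28 for Grain T16 to T20 (28), 67 to 80 for Grain T8 to T12 (76) and 40 to 50 for Hay T8 to T12 (49).

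Replicate numbers did not pair the libraries: the 18 correlations of same-numbered Grain and Hay deviations ran from -0.039 to 0.028, and 16 of 36 libraries correlated best with their own number. With the replicate block, 73 genes were higher and 54 lower over the mean, as without it, and 52 depended on time. Genes under 1 CPM carry the widest errors at this depth.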
